A study of Mus musculus with 4 samples.

Results

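The transcripts of 10 cytokine genes, Il2, Il21, Il3, Csf2, Ifng, Il10, Il24, Lif, Il16 and Mif, were followed through 4 RNA-sequencing libraries of primary mouse T cells. The genes were taken by name from the deposited count tables, not by their values, and all 10 were found among the 50600 annotated genes. Of these 10 genes, 6 reached 1 TPM in each library (TPM, the transcript level after scaling for exon length and library total), against 22.7% of all annotated genes. Mif and Il2 were above 1000 TPM, Il3 and Lif above 100, Il16 near 50 and Csf2 near 9, while Ifng ranged from 0.110 to 1.48 TPM and Il10, Il24 and Il21 were close to the detection limit.

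The cells were from mice of the inbred strain C57BL/6NJ and formed 1 group numbered as biological replicates 1 to 4. Age is recorded as unknown and sex as not collected, no treatment is given for any sample, and a CD4+ T-cell differentiation protocol is linked. Inside the count files, the alignment names of all libraries carry the words Th0 and activated and a time of 24 h. Th0 usually denotes helper cells activated without cytokines that direct them to a subset. All samples share 1 donor entry, and whether they were separate animals or pooled animals is not given. The assay is called total RNA-seq by its title, whereas the linked protocol names poly(A)+ RNA.

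Cytokines are small secreted proteins that cells use to signal to each other and, often, to themselves. A T cell that recognises its antigen activates the factors NFAT, AP-1 and NF-kB, which switch on cytokine genes within hours. Many of the resulting mRNAs carry AU-rich sequences in their 3' end by which RNA-binding proteins mark them for rapid decay. Il16 and Mif are of another kind: their products lack a classical secretion signal, and both genes are transcribed in many resting cells.

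Library totals ran from 47558517 to 60102919 fragments in replicates 1, 3 and 4, and reached 273136467 in replicate 2. A count of 3 fragments, taken here as the detection floor, equals 0.0379 TPM in replicate 2 and up to 0.214 in the others for a gene with 1000 bases of exon. All 10 markers of CD4+ αβ T cells looked at reached 10 TPM in each library, with Cd4 at 653 to 737. Xist, transcribed from an inactive X chromosome, was at 163 and 150.5 TPM in replicates 1 and 2 but at 0.715 and 0.696 in replicates 3 and 4. The Y-linked gene Ddx3y showed the opposite order (0.0434, 0.0219, 38.8 and 39.3 TPM). By these genes replicates 1 and 2 were female and replicates 3 and 4 male, so the libraries did not all come from the same animal. The part of sex in the cytokine levels was not tested.

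Il2 encodes interleukin-2, the growth factor that activated T cells make for themselves and for regulatory T cells. The gene (ENSMUSG00000027720.7) lies at mm10 chr3:37120523-37125959 on the minus strand. Its level was 1339, 1174, 1286 and 1308 TPM in replicates 1 to 4, from 27168, 106276, 20784 and 20981 fragments. Replicate 2 was lowest, and the highest library was 1.14 times the lowest. The mean was 1276 ± 71.8 TPM (SD, n = 4), rank 74 among all annotated genes, and Il2 took between 0.0389% and 0.0452% of all counted fragments. In these bulk libraries, fewer cells making a transcript and less of it per cell cannot be told apart. A stretch of Il2 exon is 99.5% identical to the annotated gene Ntan1, and fragments aligning to both places would not have been counted.

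Il21 encodes interleukin-21, which helps B cells and is typical of follicular helper cells. It neighbours Il2 on the same strand, at chr3:37222759-37232636 (ENSMUSG00000027718.8), 96799 bases away with only the predicted gene Gm12532 between them. It had 1, 16, 3 and 2 fragments in replicates 1 to 4, or 0.0107, 0.0384, 0.0404 and 0.0271 TPM. Replicate 2 alone was above its own detection floor of 3 fragments. Il2 exceeded Il21 by 10.28 ± 0.10 (SD, n = 4) on the log2(TPM + 1) scale within libraries, in 4 of 4. In replicate 2, whose 16 fragments allow a ratio, Il2 stood 30535 times above Il21. A two-sided exact sign-flip permutation test gave p = 0.125, the smallest value that 4 libraries allow, and 0.15 after Benjamini-Hochberg adjustment over the 6 pairs of related neighbouring genes compared.

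The promoter windows of Il2 and Il21, the pair with the largest gap in level, are printed for comparison of their core motifs. They come from RefSeq (GRCm38.p6), run from 250 bases before to 50 bases after the annotated start, and are read in the direction of the gene, here the minus strand. Capitals mark GGAAA, the core shared by NFAT and Ets sites, or its reverse complement TTTCC, and TATAAA, the TATA box. The windows lie at chr3:37125905-37126204 for Il2 and chr3:37232587-37232886 for Il21.
Il2: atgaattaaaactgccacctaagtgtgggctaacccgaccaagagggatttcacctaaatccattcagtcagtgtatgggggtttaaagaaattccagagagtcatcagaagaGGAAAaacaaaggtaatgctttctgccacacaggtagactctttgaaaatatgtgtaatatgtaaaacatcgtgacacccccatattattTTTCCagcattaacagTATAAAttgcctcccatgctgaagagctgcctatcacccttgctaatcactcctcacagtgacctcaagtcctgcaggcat
Il21: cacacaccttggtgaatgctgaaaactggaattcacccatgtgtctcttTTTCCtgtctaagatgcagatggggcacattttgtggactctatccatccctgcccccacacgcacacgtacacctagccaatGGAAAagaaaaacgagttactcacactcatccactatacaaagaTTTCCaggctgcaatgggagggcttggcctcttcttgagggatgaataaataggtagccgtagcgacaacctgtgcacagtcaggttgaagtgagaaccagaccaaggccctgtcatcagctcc

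The Il2 window held GGAAA at 2 places, starting at positions -137 and -47 with the start base counted as 1 and no position 0, and a TATA box at -31. The Il21 window held GGAAA at 3 places, at -201, -118 and -74, and no TATAAA. Neither held TGANTCA, the AP-1 site, or TGACGTCA, the cAMP response element (CRE), on either strand. Of 32851 mouse promoter windows of the same length, 61.3% held GGAAA, 26.7% held it at least 2 times and 9.42% at least 3 times, while 13.6% held TATAAA. A match is a description of the letters and says nothing on binding.

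Il3 and Csf2 encode interleukin-3 and GM-CSF, growth factors for blood-forming and myeloid cells whose genes lie side by side. Il3 (ENSMUSG00000018914.5, chr11:54265303-54267277, minus strand) was at 156, 146, 137 and 134 TPM in replicates 1 to 4. Csf2 (ENSMUSG00000018916.5, chr11:54247271-54249667, minus strand) was at 7.96, 9.93, 9.11 and 7.93 TPM, from 113, 629, 103 and 89 fragments. Il3 was highest in replicates 1 and 2, Csf2 in replicates 2 and 3, and the Il3 and Csf2 ranges did not overlap. The means were 143 ± 9.92 TPM for Il3 and 8.73 ± 0.970 for Csf2 (SD, n = 4).

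No annotated gene lies in the 15635 bases between Csf2 and Il3. Il3 exceeded Csf2 by 3.89 ± 0.17 on the log2(TPM + 1) scale (SD, n = 4), in 4 of 4 libraries (exact sign-flip permutation p = 0.125, adjusted 0.15). The ratio of the Il3 level to the Csf2 level ran from 14.7 in replicate 2 to 19.6 in replicate 1. The exact Poisson 95% intervals of Csf2, which cover counting error only, ran from 6.56 to 9.57 TPM in replicate 1 and from 9.17 to 10.7 in replicate 2, and so overlapped.

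The RefSeq windows of this pair are shown because the lower gene holds more GGAAA letters than the higher one. They lie at chr11:54267230-54267529 for Il3 and chr11:54249850-54250149 for Csf2 (GRCm38.p6), both on the minus strand. The Csf2 window lies wholly upstream of the gene span in the count tables, whose annotation begins Csf2 further downstream. Capitals mark GGAAA or TTTCC.
Il3: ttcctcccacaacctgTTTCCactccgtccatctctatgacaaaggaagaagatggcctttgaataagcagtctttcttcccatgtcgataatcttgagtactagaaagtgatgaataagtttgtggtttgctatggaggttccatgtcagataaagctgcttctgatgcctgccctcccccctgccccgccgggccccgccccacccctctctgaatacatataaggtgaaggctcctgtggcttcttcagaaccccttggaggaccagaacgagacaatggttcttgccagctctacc
Csf2: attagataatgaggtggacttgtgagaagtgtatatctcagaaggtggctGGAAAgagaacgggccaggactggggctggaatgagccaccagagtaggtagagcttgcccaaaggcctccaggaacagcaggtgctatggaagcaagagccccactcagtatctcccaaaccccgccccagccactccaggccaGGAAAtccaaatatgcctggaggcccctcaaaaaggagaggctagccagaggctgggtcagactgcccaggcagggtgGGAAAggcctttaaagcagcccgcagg

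Il3 held GGAAA at 1 place, position -234, and Csf2 at 3, positions -200, -55 and 24. Neither window held TATAAA, the only form of the TATA box searched for, or the letters of an AP-1 site or CRE. Other forms of the TATA box were not tested.

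Ifng encodes interferon-γ, the signature cytokine of Th1 and CD8+ T cells and of natural killer cells, which activates macrophages. Ifng (ENSMUSG00000055170.4, chr10:118441046-118445892, plus strand) was at 1.48, 0.215, 0.492 and 0.110 TPM in replicates 1 to 4, from 34, 22, 9 and 2 fragments. Replicate 1 stood above the rest, and replicate 4 was below its detection floor of 0.165 TPM. The exact Poisson 95% interval was 1.02 to 2.07 TPM in replicate 1 and 0.135 to 0.325 in replicate 2. The level in replicate 1 was 6.89 times that in replicate 2 (95% counting interval 3.92 to 12.4), 3.01 times that in replicate 3 (1.41 to 7.13) and 13.4 times that in replicate 4 (3.45 to 115). The mean of the 4 libraries, 0.574 ± 0.625 TPM (SD, n = 4), rested on replicate 1 and was 0.272 without it.

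Ifng did not pass the filter on low counts of the test of variation between replicates. In the same fit without that filter it was not called (edgeR goodness of fit over 22271 genes, adjusted p = 1). Of the exon bases of Ifng, 25.9% are shared with the predicted gene Gm49751 on the same strand. Fragments that overlap several genes were not counted. Il22, a cytokine gene 230998 bases away that acts on epithelia, had no fragment in any library, which allows up to 0.193 TPM. Ifngas1, a non-coding neighbour of Ifng, had none either.

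Markers of other cells that transcribe Ifng were read in the same libraries. The 8 natural killer genes were all below 1 TPM in every library, and their summed level was 1.29, 1.05, 1.12 and 1.24 TPM in replicates 1 to 4. Prf1 was the highest of them, at 0.489 to 0.883 TPM. Tyrobp was at 0.338, 0.171, 0.106 and 0.214 TPM, Klra8 had 3 fragments in replicate 1 and none elsewhere, and Klrb1c and Klre1 had no fragment. Klrd1 had 0, 15, 5 and 1 fragments in replicates 1 to 4, Ncr1 0, 21, 0 and 2, and Gzma 0, 5, 1 and 0. Of 6 Th1 genes, 5 reached 1 TPM in each library, and the summed level of all 6 was 13.5, 13.5, 11.4 and 11.7 TPM. Il12rb2, the chain specific to the interleukin-12 receptor, was at 5.07, 4.73, 3.10 and 2.71 TPM. Ccl5 was at 2.23, 1.95, 3.02 and 2.525 TPM and Cxcr3 at 2.21, 1.64, 1.43 and 1.85. Il18rap was at 1.36, 1.86, 1.31 and 1.37 TPM and Il18r1 at 0.960, 0.847, 0.955 and 0.992. Tbx21, the Th1 regulator, was at 1.65, 2.48, 1.62 and 2.26 TPM, and Eomes, its relative in CD8+ cells, at 0.692, 0.262, 0.903 and 0.206. Cd8a was at 0.804 to 0.862 TPM in all 4 libraries and Gzmk had no fragment, whereas Cd8b1 reached 41.8 to 50.3. The part of these cells in the Ifng level was not tested.

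Il10 and Il24 belong to the interleukin-10 family, whose founder restrains inflammation. Il10 (ENSMUSG00000016529.5, chr1:131019845-131024974, plus strand) had 0, 6, 0 and 4 fragments in replicates 1 to 4, or 0.0579 TPM in replicate 2 and 0.218 in replicate 4. Il24 (ENSMUSG00000026420.16, chr1:130882074-130887454, minus strand) had 0, 14, 0 and 0 fragments, which is 0.128 TPM in replicate 2. The upper bound of the exact Poisson 95% interval of Il24 was 0.150 TPM in replicate 1, 0.188 in replicate 3 and 0.190 in replicate 4. Each of these bounds lies above the 0.128 TPM of replicate 2, so no shallower library by itself excludes that level. Whether the shallower libraries as a set differed from replicate 2 was not tested.

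Il24 and Il10 differed by -0.05 ± 0.16 on the log2(TPM + 1) scale (SD, n = 4), which is below the spread over libraries, and 1 of 4 libraries had more Il24 (exact sign-flip permutation p = 1). The sign of this mean turned when replicate 4 was left out, to 0.03. Between them lie Il19, with 4 fragments over all libraries, and Il20, with none. By contrast Mapkapk2, a kinase gene 28725 bases from Il10, was at 268 ± 11.1 TPM, and Eif2d, further along, at 61.8 ± 2.73 (SD, n = 4). No RefSeq promoter window was matched to Il10 or Il24.

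**Figure D1:**
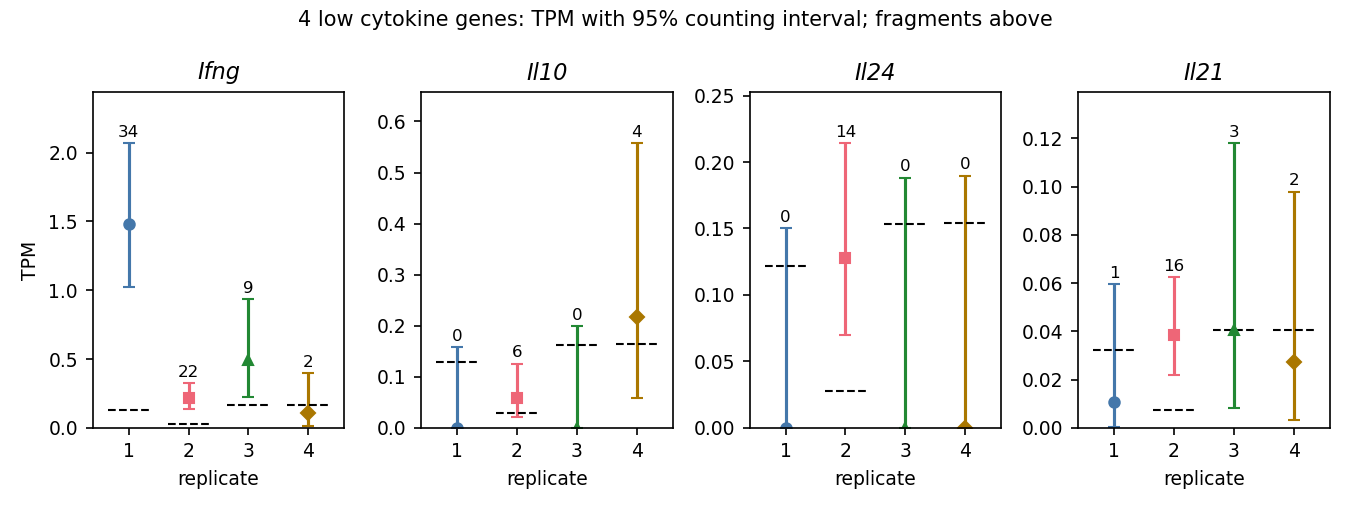
TPM of Ifng, Il10, Il24 and Il21 in replicates 1 to 4, 1 panel per gene with its own linear axis. Points are single libraries, bars the exact Poisson 95% counting intervals, dashed lines the level of 3 fragments, and the numbers above give fragments; Ifng in replicate 1 (34 fragments, 1.48 TPM) is the only value of the 16 above 1 TPM.

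Lif encodes leukaemia inhibitory factor, a cytokine of the interleukin-6 family that signals through gp130. Lif (ENSMUSG00000034394.14, chr11:4257557-4272514, plus strand) was at 129, 156, 138 and 149.7 TPM in replicates 1 to 4, from 9978, 53566, 8465 and 9135 fragments. Replicates 2 and 4 were high and replicates 1 and 3 low, a pattern unlike that of Il3. The mean was 143 ± 11.8 TPM (SD, n = 4).

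Osm, encoding oncostatin M of the same family, lies 16530 bases from Lif with no annotated gene between them, at 22.5, 25.8, 27.3 and 20.9 TPM. Lif exceeded Osm by 2.52 ± 0.20 on the log2(TPM + 1) scale (SD, n = 4), in 4 of 4 libraries (exact sign-flip permutation p = 0.125, adjusted 0.15). The RefSeq window of Lif held an AP-1 site, TGACTCA, at position -228 and GGAAA at 1 place, and TGANTCA was present in 7.81% of all windows. A window of Il16 held TGACTCA too, at position -18. Beyond Osm, the neighbours of Lif differed in level: Tbc1d10a was at 58.1 TPM, Mtmr3 at 49.2, Ascc2 at 76.4 and Castor1 at 6.725. Hormad2, the nearest to Lif on the side away from Osm, was at 0.304 TPM.

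Il16 encodes a precursor that is cut to release interleukin-16, a chemoattractant that binds CD4. Il16 (ENSMUSG00000001741.12, chr7:83642825-83745726, minus strand) was at 50.4, 51.2, 52.2 and 51.4 TPM in replicates 1 to 4, from 7029, 31853, 5797 and 5672 fragments. The mean was 51.3 ± 0.735 TPM (SD, n = 4), and the coefficient of variation, 1.43%, was the smallest of the 10 genes. Cd4, encoding its receptor, was at 653 to 737 TPM. Il16 overlaps Stard5, which lies on the opposite strand and was at 12.1 ± 0.485 TPM; the counting used strand.

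Mif encodes macrophage migration inhibitory factor, a tautomerase-fold protein that binds CD74 and is stored in the cytoplasm of many cells. Mif (ENSMUSG00000033307.7, chr10:75859353-75860240, minus strand) was at 1851, 1640.3, 1921 and 1954 TPM in replicates 1 to 4, from 24466, 96715, 20221 and 20414 fragments. Replicate 2 was the lowest, as it was for Il2. The mean was 1841 ± 141 TPM (SD, n = 4), rank 39 among all annotated genes. The value is uncertain, because 6 other annotated genes, 5 of them pseudogenes, are at least 90% identical to Mif over 200 bases or more. Fragments aligning to several places were not counted, and those 6 genes had 1759 fragments in all.

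Ddt, the homologue of Mif in the same cluster, was at 77.9, 95.4, 84.2 and 87.2 TPM. Mif exceeded Ddt by 4.40 ± 0.21 on the log2(TPM + 1) scale (SD, n = 4), in 4 of 4 libraries (exact sign-flip permutation p = 0.125, adjusted 0.15). The promoter window of Mif is shown because it was the only window of the matched cytokine genes with a CRE, found in 1.79% of all windows. It lies at chr10:75860228-75860527 on the minus strand (RefSeq, GRCm38.p6), and capitals mark TGACGTCA at position -24 and GGAAA or TTTCC at -141 and -130.
Mif: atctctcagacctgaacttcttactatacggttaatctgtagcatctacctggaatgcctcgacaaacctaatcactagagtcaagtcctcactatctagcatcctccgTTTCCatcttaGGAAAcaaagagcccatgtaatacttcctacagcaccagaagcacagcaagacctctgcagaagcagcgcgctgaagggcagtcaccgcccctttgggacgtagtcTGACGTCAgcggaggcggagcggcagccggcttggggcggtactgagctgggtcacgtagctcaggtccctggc

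**Figure D2:**
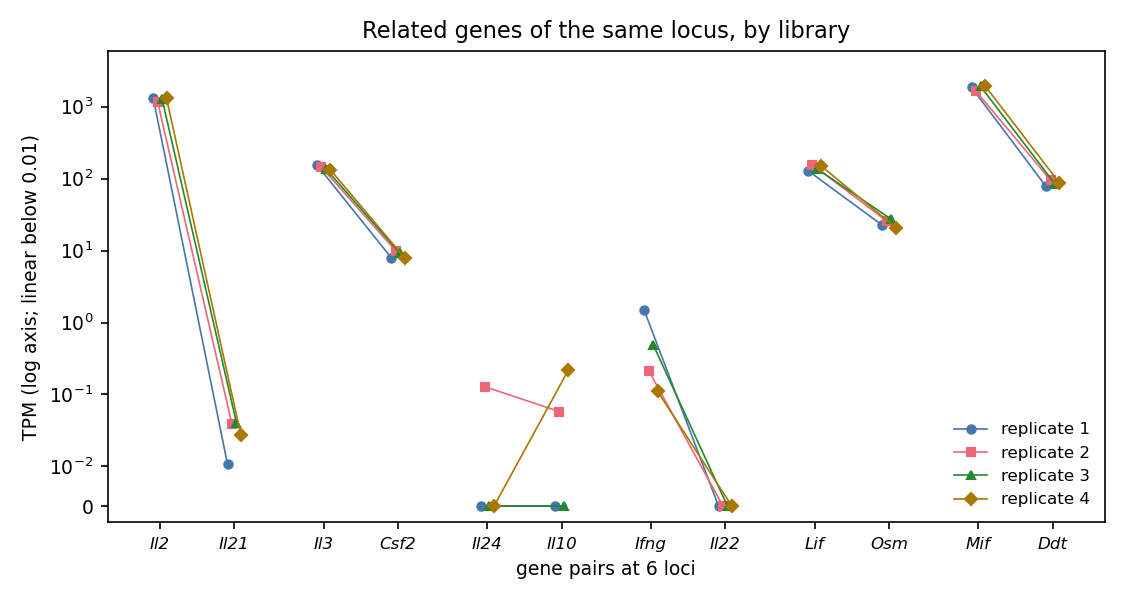
TPM of the 6 pairs of related genes that lie near each other, on a log axis that is linear below 0.01, with 1 line per library. Il2 against Il21 spans the widest range, and Il24 against Il10 is the pair in which the lines take different directions.

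Set in order of mean level, the genes ran Mif, Il2, Il3, Lif, Il16, Csf2, Ifng, Il10, Il24, Il21. Mif exceeded Il2 by 0.53 ± 0.06 on the log2(TPM + 1) scale (SD, n = 4) in 4 of 4 libraries. Il2 exceeded Il3 by 3.15 ± 0.13, the widest step on this scale, which compresses low levels. As a ratio of mean TPM it was 8.91, below the 15.2 of Csf2 over Ifng. Il3 and Lif did not differ beyond their spread: their mean difference was 0.0034 ± 0.19, and Il3 was higher in 1 of 4 libraries. The order of Il3 and Lif also depended on how length entered, since Lif has 4350 exon bases and Il3 629. On the log2 scale of counts scaled by library total alone, Il3 minus Lif was -2.74.

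Below that pair, Lif exceeded Il16 by 1.46 ± 0.11, Il16 exceeded Csf2 by 2.43 ± 0.14 and Csf2 exceeded Ifng by 2.70 ± 0.59 (SD, n = 4), each in 4 of 4 libraries with no overlap of ranges. The levels of Ifng, Il10, Il24 and Il21 overlapped from each to the next. The values of Ifng, at 0.110 TPM or more, did not overlap those of Il21, at 0.0404 or less. In replicate 4, however, each had 2 fragments, and their exact Poisson 95% intervals, 0.0133 to 0.398 and 0.00328 to 0.0979 TPM, overlapped. The order of Il10, Il24 and Il21 was not resolved. These steps are descriptions, as neighbours in an order are chosen by their levels.

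**Figure D3:**
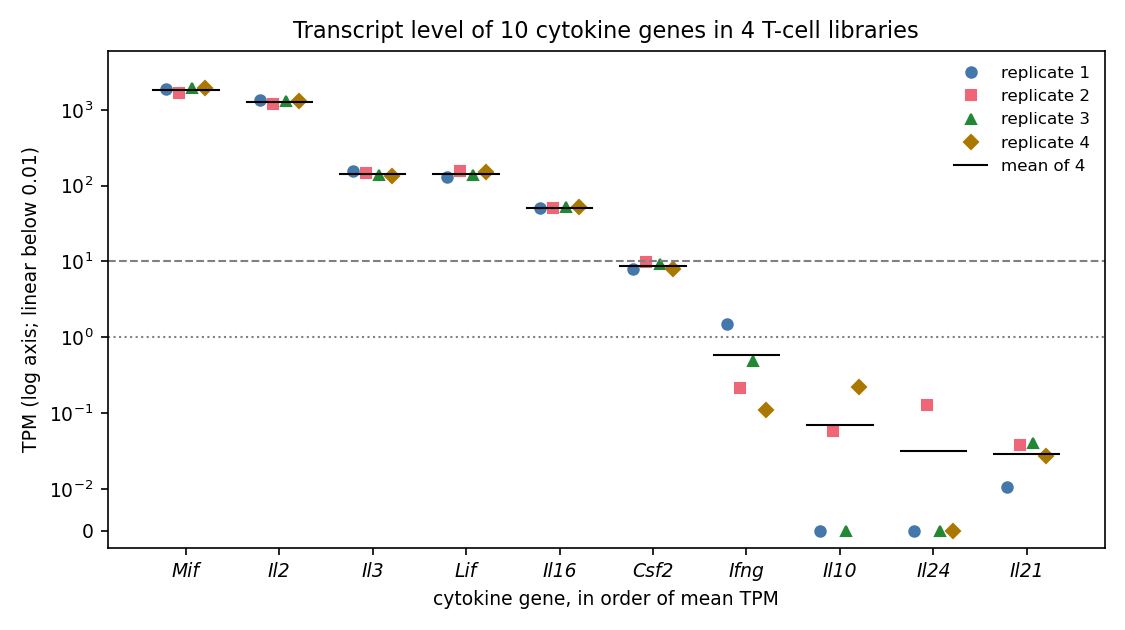
TPM of the 10 cytokine genes in order of their mean, on a log axis that is linear below 0.01. Points are the 4 libraries, horizontal bars the means, and the dashed and dotted lines 10 and 1 TPM; the 5 genes from Mif to Il16 lie above 10 TPM in every library and Csf2 lies between the lines.

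The 10 levels summed to 3535, 3178, 3543 and 3604 TPM in replicates 1 to 4. Il2 and Mif together made up 90.2%, 88.6%, 90.5% and 90.5% of that sum. Replicate 2 was the lowest in both measures. The ratio of Il2 to Mif was 0.723 and 0.716 in replicates 1 and 2 and 0.669 in each of replicates 3 and 4.

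Whether any of these genes varied between replicates more than genes of its level was tested on the whole table. Of 12712 genes that passed the filter on low counts, 46 did so (0.362%; intercept-only edgeR model, goodness of fit, adjusted p under 0.05). Of the 10 cytokine genes 6 passed the filter and 0 of these were called, also at an unadjusted p under 0.05, which 704 of all genes reached. Without the filter all 10 could be tested and 0 were called. Unadjusted p-values were 0.180 for Lif, 0.264 for Mif, 0.506 for Il2, 0.553 for Il3, 0.904 for Csf2 and 0.981 for Il16 (edgeR, each adjusted to 1). The residual deviance of Il16 was 0.181, and 96.8% of the genes tested had a larger one. No label says which animals the libraries came from, and Xist and Ddx3y separate replicates 1 and 2 from replicates 3 and 4. The p-values measure the spread of these 4 samples, whose technical share is not known.

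**Figure D4:**
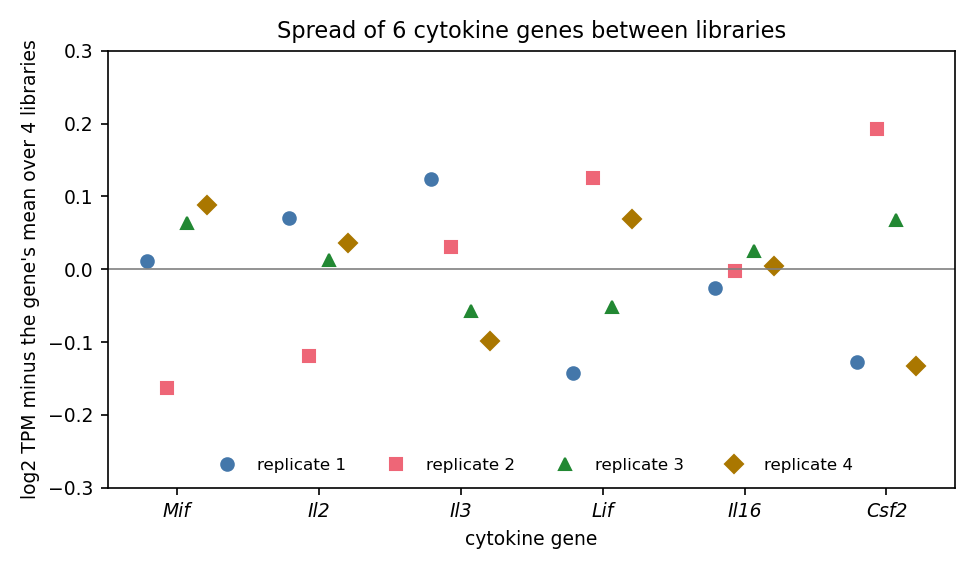
Log2 TPM of the 6 cytokine genes that passed the filter, minus each gene's mean over the 4 libraries. Points are libraries; Mif and Il2 are lowest in replicate 2, Lif and Csf2 highest there, and Il16 stays within 0.03 of 0.

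Receptor chains for these cytokines were described as a list of 22 genes, of which 16 reached 1 TPM in each library and 12 reached 10. All 3 chains of the interleukin-2 receptor were abundant. Il2ra, the chain that gives high affinity, was at 307, 302, 289 and 284 TPM, Il2rb at 365, 405, 387 and 364, and the shared γ chain Il2rg at 304, 319.9, 327 and 319.6. Il21r, the specific chain for interleukin-21, was at 147, 166, 174 and 179 TPM, although its ligand gene was near the detection limit. Ifngr1 (30.1 to 33.6 TPM) and Ifngr2 (21.7 to 23.4), the chains of the interferon-γ receptor, were likewise above their ligand.

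For interleukin-3 and GM-CSF the specific chains Il3ra and Csf2ra and the shared chain Csf2rb fell on different sides of 1 TPM. Il3ra was at 10.5 to 15.0 TPM and Csf2ra at 8.41 to 14.1. Csf2rb, the shared signalling chain, had 4, 41, 9 and 5 fragments, at most 0.134 TPM, and its relative Csf2rb2 had fragments in replicate 2 only. For Lif the split was reversed. Il6st, encoding the shared chain gp130, was at 62.8 to 72.2 TPM, and Lifr, the specific chain, at 0 to 0.0552.

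Il10rb (10.7 to 13.5 TPM) and Il10ra (6.95 to 10.3), the chains of the interleukin-10 receptor, were both above 1 TPM. Of the chains for interleukin-24, Il20rb was at 2.47 to 3.47 TPM, Il20ra had 9 fragments in replicate 1 and none elsewhere, and Il22ra1 had no fragment. Cd74 and Cd44, the receptor pair for MIF, were at 126 to 141 and 61.1 to 69.3 TPM, and Cxcr4, a chemokine receptor that also binds MIF, at 4.83 to 6.81. Cxcr2, another such receptor, had 6 fragments in replicate 2 alone. Of the 22 genes 16 were tested for variation between replicates and 0 were called, against 0.362% of all genes tested.

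**Figure D5:**
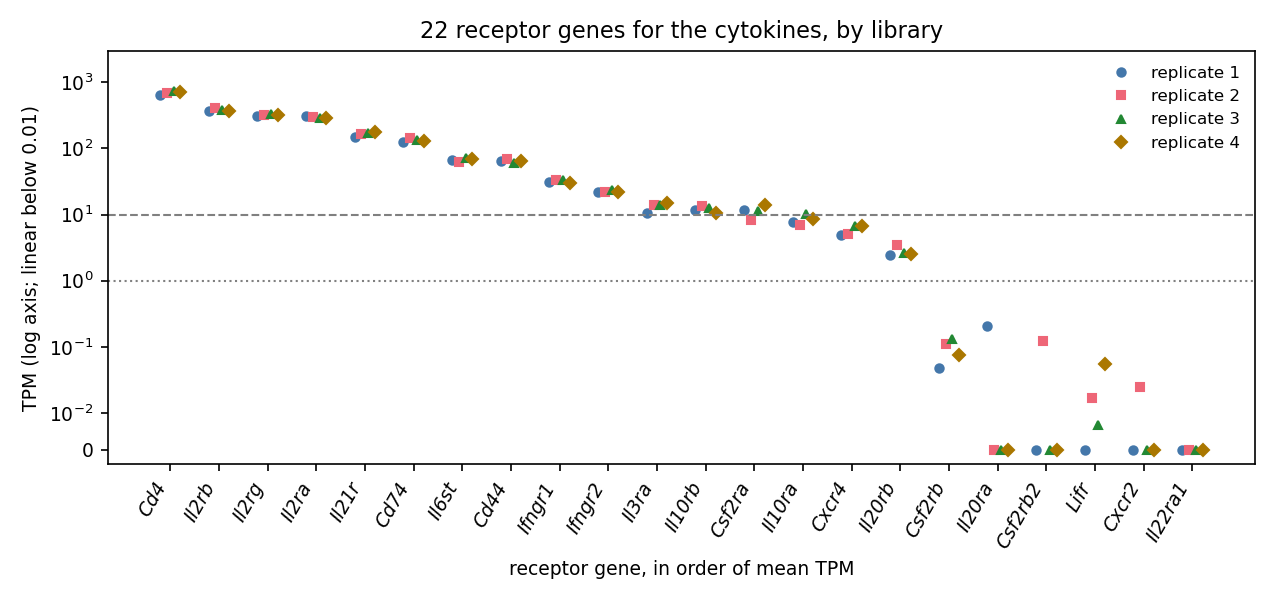
TPM of the 22 receptor genes in order of their mean, on a log axis that is linear below 0.01, with 1 point per library. The 16 genes from Cd4 to Il20rb lie above 1 TPM in every library and the 6 from Csf2rb to Il22ra1 below it.

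Transcription factors that act on cytokine genes of activated T cells were mostly present: of 33 listed, 30 reached 1 TPM in each library, and the list median was 40.5 TPM. Among all annotated genes, 22.7% reached 1 TPM in each library. Irf4, which binds beside AP-1, was highest at 789 to 869 TPM. Jund (517 to 659.5) and Junb (514 to 576), subunits of AP-1, and Nfkb1 (272 to 304), a subunit of NF-kB, followed. The NFAT genes Nfatc1, Nfatc3 and Nfatc2 were at 182 ± 13.0, 67.0 ± 2.12 and 40.5 ± 3.30 TPM (SD, n = 4). Maf (0.429 to 0.596 TPM) and Eomes (0.206 to 0.903) were the 2 of this list below 1 TPM in every library.

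An mRNA level depends on synthesis and decay, and the 3' ends of these genes differed in AU-rich pentamers. ATTTA, searched on the sense strand, overlaps allowed, was counted in the 3' end of the longest coding transcript of each gene (GENCODE vM21). Among 20949 protein-coding genes the median was 1, 64.7% held at least 1 and 35.3% at least 3. Il2 held 7, Lif 7, Il21 9, Csf2 9, Ifng 6, Il10 6 and Il24 4, while Il3 held 1 and Il16 and Mif held 0. The densest stretches of the genes with several clustered copies are printed, in the direction of the mRNA with ATTTA in capitals. They lie at chr3:37121040-37121067 (minus strand) for Il2, chr11:54247329-54247349 (minus) for Csf2, chr10:118445335-118445359 (plus) for Ifng and chr11:4272414-4272443 (plus) for Lif, all GRCm38.
Il2: ATTTATTTAaatATTTAactttaATTTA
Csf2: ATTTATTTATTTATTTATTTA
Ifng: ATTTAttaatATTTAaaactATTTA
Lif: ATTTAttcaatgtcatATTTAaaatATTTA

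Csf2 held 5 overlapping copies in 21 bases, and 9 in a 3' end of 317 bases. Il2 held its 7 in 581 bases and Lif its 7 in 3180, so the same count stood for different densities. Il3 held its 1 in an annotated 3' end of only 101 bases, which is 0.990 per 100 bases. That density was 2.84 for Csf2, 1.20 for Il2, 1.05 for Il24, 0.951 for Ifng, 0.850 for Il10, 0.349 for Il21 and 0.220 for Lif. Its median over the protein-coding genes was 0.122. Both genes without ATTTA, Il16 and Mif, were among the 5 that reached 10 TPM in each library, and so were Il2 and Lif with 7 each. Of 19 genes for proteins that bind or degrade cytokine mRNAs, through AU-rich or stem-loop sequences, 19 reached 1 TPM in each library and 17 reached 10. Khsrp was highest at 389 to 426 TPM, Zfp36l1 was at 259 to 288, Hnrnpd at 145 to 181, and Zc3h12d, a relative of regnase-1, at 119 to 139.

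The genes most like a given cytokine gene over the 4 libraries were found by the root mean square difference of log2(TPM + 1), as a description. For Il2 they were Cox8a and Rps3 (0.0679 and 0.0682), for Il3 Tmpo and Ppp3r1 (0.0246 and 0.0253), for Il16 Uggt1 and Kif1c (0.0255 and 0.0265) and for Mif Pfn1 and Hnrnpa1 (0.0830 and 0.115). The measure compares the level as well as its pattern over the libraries.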

How the data were processed

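Each library came as a deposited table of counts. Fragments aligned at both ends were assigned to GENCODE vM13 exons by featureCounts 1.4.6-p4, per the file headers, reverse-stranded, without fragments that align to several places or overlap several genes. The alignments carry STAR in their names, the build is mm10 per the labels, and other upstream settings are not given in the sources used here. All pairs of libraries differed beyond sampling noise (chi-square of 9.67 to 31.0 for each degree of freedom).

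TPM was computed here from counts and exon lengths, and symbols were matched for 50376 of 50600 identifiers. Differences are of log2(TPM + 1). The replicates' variation was tested in R 4.3.3 with edgeR 4.0.16 (filterByExpr with a minimum count of 10, TMM, trended dispersion, residual deviance against chi-square with 3 degrees of freedom, Benjamini-Hochberg adjustment at 0.05), and the step was tested on simulated data. Near-identical copies were sought with blastn 2.17.0. PCR copies are not independent molecules, so counting intervals and floors hold for counting error alone.

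The genes, lists and tests were chosen with earlier results of these data known. The rule for names covers all 10 cytokine genes, the pairs, all receptor chains, neighbours at 10 TPM or more and the leading members of the other lists, not all of which are printed. Il19, Ifngas1, Castor1, Hormad2, Maf, Hnrnpd and genes given as controls of cell type or library were chosen after their values were seen. The search for ATTTA, the longest transcript as length and the alternatives for Il3 against Lif were added after seeing the data. Protein sequences were not analysed here.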

Additional observations from a re-analysis of the deposited data

Results flagged for a closer look

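In 8 of 40 sets of 4 library values, 1 library stood apart from the other 3 by Dixon's criterion. Chance flags about 1 in 20 independent sets, but these sets share genes, so that rate is only a rough guide. A gene with fragments in a single library always passes. That was so for Il24 (0.128 TPM in replicate 2), and for the receptor genes Csf2rb2 (0.121 in replicate 2), Il20ra (0.209 in replicate 1) and Cxcr2 (0.0249 in replicate 2). The exact Poisson 95% interval of Il24 in the other libraries reached up to 0.190 TPM. For Csf2rb2, 3 fragments equal at most 0.0464 TPM in any library, below its 0.121. For Il20ra they equal 0.0156 TPM in replicate 2, where it had no fragment. The part of depth in these values was not tested. The sum of the 10 cytokine levels was lowest in replicate 2, the deepest library, at 3178 TPM against 3535 to 3604 elsewhere. The share of that sum taken by Il2 and Mif, which rests on the same genes, was also lowest there, at 88.6% against 90.2% to 90.5%. Il20rb, a receptor chain for interleukin-24, was highest in replicate 2, at 3.47 TPM against 2.47 to 2.61. Ifngr2, a chain of the interferon-γ receptor, was highest in replicate 3, at 23.4 TPM against at most 21.98 in the others.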

How the results depend on the processing

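The counts of cytokine genes at 1 and at 10 TPM in each library (6 and 5) and of cytokine genes that varied between replicates (0) were the same under every alternative run. The number of all genes called variable was 46, between 25 (without replicate 2) and 40 with 1 library left out, and 862 with a common dispersion; the cause was not tested. With 1 library left out, the difference of Il24 and Il10 ran from -0.0947 to 0.0307, turning without replicate 4. That of Il3 and Lif ran from -0.0849 (without replicate 1) to 0.0588; it was -0.107 with the longest transcript as length and -2.74 as CPM without length, as Lif has the longer exons. Of 80 alternative mean levels 67 lay within 1 SD. With the longest transcript as length, Il2 (1008 TPM), Il3 (113), Csf2 (6.90), Lif (122) and Il16 (60.6) lay outside. Il16 did so too with mitochondrially encoded and predicted Gm genes left out of the total (53.3). The rest outside were RPKM on TMM-scaled totals, which is another scale. The means that moved by over 1.5 times on the TPM scale were Ifng, 0.272 without replicate 1, and Il10, 0.0193 without replicate 4, besides Il24, whose fragments all come from replicate 2 (0.0654 TPM with that library thinned). The SD of each of these genes exceeds its mean, so their moved means still counted as within 1 SD. With 4 libraries no pair could pass 0.05. The smallest libraries cannot resolve levels under 0.214 TPM for 1000 exon bases. No paired analysis was possible because there is only 1 group.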

Other observations

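Cytokine genes outside the 10 mostly stayed below 1 TPM, as did most annotated genes. Of 52 interleukin, interferon, colony-stimulating factor and related genes, 7 (13.5%) reached 1 TPM in each library. In all 4 libraries 42 were under it, and 18 of these had no fragment at all. Of all 50600 annotated genes, 22.7% reached 1 TPM in each library, 37020 were under it in all 4 and 28329 had no fragment. The 7 were led by Tgfb1, encoding transforming growth factor β1, at 149 to 167 TPM. Ddt was next, followed by Ebi3, the chain shared by interleukin-27 and interleukin-35, at 46.2 to 58.4 TPM, and Osm. Il1a was at 11.6 to 13.5 TPM, Clcf1, a further gp130 cytokine, at 9.56 to 10.9, and Flt3l, a growth factor for dendritic cells, at 6.14 to 7.75. None of the 11 genes of this list that passed the filter was called variable between replicates (edgeR goodness of fit, 0 of 11, against 0.362% of all genes tested).

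Of 9 factors known to repress Il2 or other cytokine genes, 6 reached 1 TPM in each library, against 22.7% of all annotated genes. Ikzf1, encoding Ikaros, was highest at 387 to 411 TPM, followed by Bach2 at 115 to 133. Zeb1, a repressor of Il2, was at 18.2 to 19.4 TPM and Crem at 13.7 to 15.1. Prdm1, encoding BLIMP-1, was at 0 to 0.168 TPM. Genes of mast cells and basophils, which also make Il3, had no fragment in any library (0 of 7 genes), and of 10 myeloid genes Cd68 alone reached 1 TPM in each library.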
